A study of Rattus norvegicus with 89 samples.

Results

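The genes described here are the activators of the circadian clock, Bmal1 (also called Arntl), Npas2 and Clock, and 3 genes grouped with them as running against clock outputs such as Dbp, namely Cry1, Cry2 and Nfil3. In these rats Cry2 did not follow that grouping, since it correlated positively with Dbp within groups (r 0.52), while the other 5 genes correlated negatively (-0.37 to -0.71). The 6 genes were taken by symbol, with earlier results of these data known, and are 6 of the 14217 named genes on the arrays, read by 10 probe sets. Kidney RNA was measured on 89 Affymetrix rat arrays, 1 array per rat, from male and female Sprague-Dawley Crl:CD(SD) rats that were 7 to 8 weeks old at the start, were housed singly and carried no genetic change named in the labels. RNA came from pooled apical parts of the right and left kidney. The treated groups received 1 of 6 agents daily for 1 day or 5 days (Gentamycin, Tobramycin, Cisplatin, Cadmium, Doxorubicin, Valproic acid), with 6 rats a group, except 5 for Doxorubicin at day 5. Saline rats of day 1 (n = 7) and day 5 (n = 5) and untreated Naive rats (n = 6) served as controls. The design text counts 5 known nephrotoxicants and a pair of controls among the compounds, while no source used here states doses or the hour of sampling.

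Unscaled arrays had 2% trimmed means of 91.5 to 352, and rank correlations between arrays were 0.898 to 0.988. The number of arrays a group limits the precision of every value. For 5 arrays the treatment text is absent (1F104 and 1M4) or differs from the title (1M2, 2F114 and 5F137), and the title was used. The tubule genes Umod, Lrp2 and Slc34a1 had median signals of 6379, 5260 and 5785. The adrenal genes Cyp11b1 and Star and the lymphocyte genes Cd3e, Cd79b and Ms4a1 stayed under the filter signal of 33.1 on all 89 arrays. The adrenal gene Cyp11a1 and the lymphocyte genes Cd2 and Cd3d were under it on 87, 87 and 82 arrays (highest 38.8, 38.6 and 45.4). The adipocyte genes Fabp4 and Adipoq were under it on 0 arrays, Cfd on 28, Plin1 on 38 and Lep on all 89. Fabp4 reached 1336 and Cfd 864.

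In mammals, BMAL1 pairs with CLOCK or with its paralogue NPAS2, and the pair binds E-box sequences to switch on the Period and Cryptochrome genes, the Rev-erb genes Nr1d1 and Nr1d2, and the output gene Dbp. PER and CRY proteins then hold the pair back, and the loop takes about a day. REV-ERB proteins repress and ROR proteins activate Bmal1 and Npas2 through ROR response elements, so these activators peak when Dbp and the Rev-erb genes are low. In mouse, Cry1 and Nfil3 are also repressed by REV-ERB proteins and peak late, near the activators. Nfil3 encodes a repressor that competes with DBP for D-box sequences. The kidney has such a clock in its tubules, where it times transport of sodium and water.

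The promoters of 5 of the 6 genes were in RefSeq's GRCr8 table, as 250 bases before to 50 bases after the start site. Those of Bmal1 and Npas2 are shown because these genes varied most between groups and, in mouse, are known targets of ROR proteins. Bmal1 lies at chr1:176766222-176864741 and its promoter at chr1:176766078-176766377, on the plus strand. Npas2 lies at chr9:48959225-49138036 and its promoter at chr9:48959315-48959614, on the plus strand. The Bmal1 window spans the first base of its gene, and its start site lies after that base, inside the gene. The Npas2 window lies wholly inside its gene, around a later start site, and holds no sequence before the first base of the gene. Capitals mark the 9 letters AGTAGGTNA, a longer form of the ROR element.
Bmal1: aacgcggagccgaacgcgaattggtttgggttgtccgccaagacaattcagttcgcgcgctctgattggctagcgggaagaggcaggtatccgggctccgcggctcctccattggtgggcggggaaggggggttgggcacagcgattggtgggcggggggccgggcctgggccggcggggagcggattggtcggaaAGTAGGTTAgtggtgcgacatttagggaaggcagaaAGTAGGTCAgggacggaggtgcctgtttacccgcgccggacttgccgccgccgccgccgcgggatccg
Npas2: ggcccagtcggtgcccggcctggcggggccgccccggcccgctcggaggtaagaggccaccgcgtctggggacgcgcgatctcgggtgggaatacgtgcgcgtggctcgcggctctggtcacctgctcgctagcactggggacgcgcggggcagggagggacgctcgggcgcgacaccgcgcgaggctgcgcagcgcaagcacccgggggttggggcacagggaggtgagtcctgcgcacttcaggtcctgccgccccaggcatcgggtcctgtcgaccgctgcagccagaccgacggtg
Bmal1 holds 2 copies of AGTAGGTNA, which start 54 and 18 bases before the start site, and the second contains the core AGGTCA. Both copies lie after the first base of the gene and so inside it. Either strand was searched, and 0.604% of 33469 promoters of this length hold AGTAGGTNA, against 16.2% for AGGTCA. The longer form was chosen after the Bmal1 sequence had been read. The E-box CACGTG (in 6.42% of promoters), the D-box TTATGTAA or TTACGTAA (1.01%) and the cyclic AMP element TGACGTCA (1.83%) were not in the Bmal1 window. None of these letters, the ROR forms included, was found in the windows of Npas2, Clock (chr14:32262500-32262799, plus strand), Cry2 (chr3:98860388-98860687, minus strand) or Nfil3 (chr17:12432126-12432425, plus strand). Cry1 is at chr7:20417526-20481791. A match is a description of the letters and not of a bound site, and its absence covers only this window.

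Levels are given as signal scaled to a common trimmed mean, and changes as differences of log2(signal + 16), which understates the change of dim genes. The probe set with the highest mean stood for each gene, and all 6 genes passed the filter on dim signals. Clock has 4 probe sets, 1 of them under 33.1 on all 89 arrays, Cry2 has 2, 1 of them under it on 70 arrays, and the other 4 genes have 1 each. Clock was the most even of the 6, with single rats between 189 and 530 and group means between 288 ± 21.6 (Doxorubicin at day 5, SD, n = 5) and 387 ± 27.3 (Gentamycin at day 1, SD, n = 6). Bmal1 had single rats between 16.8 and 171, and lay under 33.1 on 15 arrays. Its group means ran from 34.1 ± 14.9 (Cadmium at day 5, SD, n = 6) to 129.2 ± 13.2 (saline at day 1, SD, n = 7). Npas2 spanned as much as Bmal1, 1.58 on the log2 scale between its lowest and highest group mean, from 57.1 ± 43.8 (Valproic acid at day 5, SD, n = 6) to 174 ± 40.1 (saline at day 1, SD, n = 7). The span was 1.10 for Nfil3, 0.93 for Cry1, 0.54 for Cry2 and 0.41 for Clock. Nfil3 lay under 33.1 on 17 arrays, more than Bmal1. Cry2, a repressor like Cry1, ran the other way, with its highest mean, 224 ± 42.2, in Cadmium rats at day 5 and its lowest, 149.02 ± 22.4, in Gentamycin rats at day 1 (SD, n = 6 each). In the order of the 15 group means, 0 of 14 steps between neighbours exceeded the larger of the neighbours' SDs, for each of the 6 genes.

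**Figure D1:**
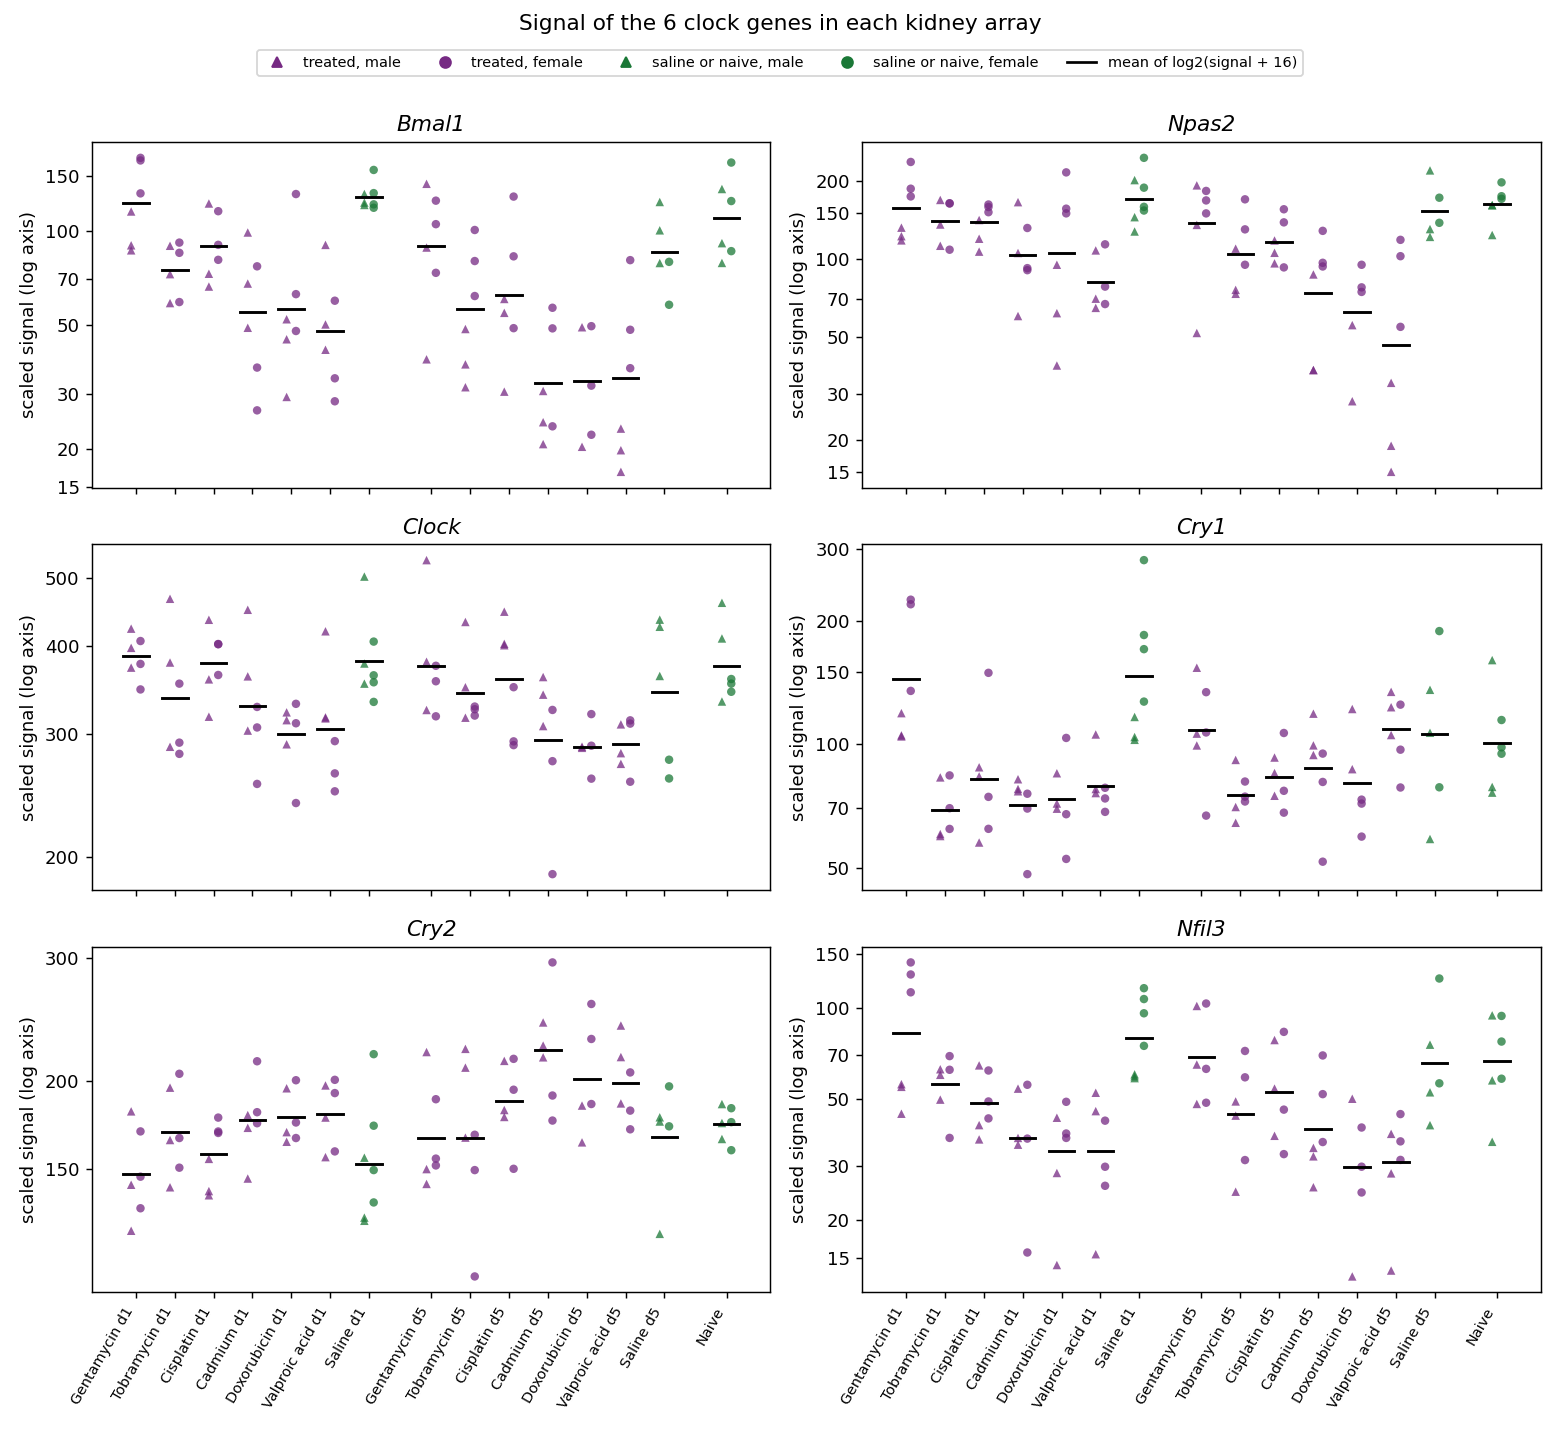
Scaled signal (log axis) of the 6 genes in each of 89 rats by group, with treated rats in purple, saline and Naive rats in green, triangles for males, circles for females and a bar at the group mean of log2(signal + 16). Group means of Bmal1, Npas2 and Nfil3 are low in Cadmium, Doxorubicin and Valproic acid rats and near saline in Gentamycin rats, while Clock and Cry2 span little. Npas2 in Doxorubicin rats of day 1 has a mean of 65.1 in males and 173.6 in females, against 157.6 and 186.2 in saline rats.

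Whether a gene differed among groups at all was asked with limma's moderated F test. Over the 15 groups, 6 of the 6 genes passed at an adjusted p of 0.05, against 509 of all 11420 genes (4.46%), with a median F of 5.47 against 1.16 over all genes. Bmal1 ranked 8 among all genes (F 9.87, adjusted p = 4.69e-09) and Npas2 ranked 10 (F 8.83, adjusted p = 4.57e-08). Nfil3 (F 5.95, adjusted p = 3.05e-05) and Cry1 (F 5.00, adjusted p = 0.000263) passed with lower F. Clock (F 3.65, adjusted p = 0.00675) and Cry2 (F 2.94, adjusted p = 0.0347) had the lowest F of the 6. Clock lost its call without scaling (adjusted p = 0.0776), with the mean of its probe sets (adjusted p = 0.163) and without the sex term (adjusted p = 0.0832). Cry2 lost its call with 5 of 12 other settings (adjusted p up to 0.810). It passed in 78 of 89 fits that left out 1 rat (adjusted p up to 0.0852) and not without 1F102, 1M2, 1M3, 2F110, 2F112, 2M11, 2M12, 5F140, 5M40, 5M41 or 5M42.

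Among the 7 groups of day 1, 4 of the 6 genes passed, against 145 of all genes (1.27%). They were Cry1 (F 10.2, adjusted p = 0.00130), Bmal1 (F 9.72, adjusted p = 0.00181), Nfil3 (F 8.22, adjusted p = 0.00457) and Npas2 (F 5.44, adjusted p = 0.0375). Among the 7 groups of day 5, 2 of the 6 genes passed, against 79 of all genes (0.692%). They were Npas2 (F 9.81, adjusted p = 0.00139) and Bmal1 (F 8.02, adjusted p = 0.00572). Without the sex term both calls of day 5 were lost (adjusted p = 0.093 for Npas2 and 0.0672 for Bmal1). Cry1 had the highest F of the 6 at day 1, and at day 5 its F did not pass (adjusted p = 0.571). The Npas2 call of day 1 was lost without any one of 1F102, 1M1, 1M3, 2F110, 2F111, 4F128, 4F129, 4M30, 7F155, 7F156, 7M55 or 7M56 (adjusted p up to 0.0975). It held in 9 of 13 other settings and was lost on all 89 arrays (adjusted p = 0.0546), without the sex term (adjusted p = 0.168), without the 5 doubtful arrays (adjusted p = 0.0527) and with a GAPDH ratio of RNA quality as covariate (adjusted p = 0.0721). Clock gained a call at day 1 without 7M57 (adjusted p = 0.0498) and with array weights (adjusted p = 0.0397). Nfil3 gained one at day 5 without 3F124 or 6M49 (adjusted p = 0.0447 and 0.0328), on all 89 arrays (adjusted p = 0.0149), without scaling (adjusted p = 0.0126), with the GAPDH ratio (adjusted p = 0.0203) and with array weights (adjusted p = 0.0322).

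Markers of other cells were counted in the same F tests. Of 5 measured macrophage and granulocyte genes, 3 passed over the 15 groups (Cd68, Ptprc and Csf1r), 2 among the groups of day 1 (median F 4.54 against 1.14 over all genes) and 0 at day 5. The summed signal of all 6 listed genes at day 1 was 1998 to 2793 in Valproic acid rats, 2302 to 2859 in Doxorubicin rats and 2862 to 3805 in Tobramycin rats, against 2072 to 3180 in saline rats. In each single comparison with saline at day 1, 0 of these 5 genes passed with limma on the groups compared or on all arrays. Red blood cell genes passed in 3 of 3 cases over the 15 groups and at day 5 and in 0 of 3 at day 1, and 0 of 6 kidney, 0 of 4 adipocyte and 0 of 1 measured lymphocyte genes passed in any of the 3 tests. The part of these cells in the results was not tested.

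After 1 day of Valproic acid, the activators Bmal1 and Npas2 fell. Bmal1, the obligate partner of the activating pair, had signals of 28.4 to 90.1 with a median of 45.8 in 6 Valproic acid rats, against 118.5 to 156.8 with a median of 123.1 in 7 saline rats. Every Valproic acid rat lay below every saline rat. The change was -1.19 (SE 0.16, adjusted p = 0.00558), a fold of 0.437. Npas2, which can take the place of CLOCK in the pair, had 64.6 to 113.6 with a median of 74.1 in Valproic acid rats, against 127 to 245 with a median of 158.5 in saline rats. These groups did not overlap either, and the change was -0.92 (SE 0.15, adjusted p = 0.0211). In this comparison 9 of 11420 genes (0.0788%) passed, 4 of them lower (0.035%), and 2 of those 4 were among the 6 genes. Valproic acid rats lay wholly below saline rats for 13 genes (0.114%), 3 of them among the 6.

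The third of these was the repressor Nfil3, with 15.4 to 52.4 and a median of 36.2 in Valproic acid rats, against 58.6 to 116 and a median of 74.8 in saline rats. All 6 treated rats lay under the lowest saline rat, and the change of -0.92 (SE 0.18) had an adjusted p of 0.0881. Clock (-0.33, adjusted p = 0.344), Cry1 (-0.75, adjusted p = 0.178) and Cry2 (0.23, adjusted p = 0.559) did not pass. With the fit on all 89 arrays, where 26 genes (0.228%) passed, Bmal1, Npas2, Cry1 and Nfil3 were called (adjusted p = 0.00434, 0.0387, 0.0387 and 0.0243). In homogenized kidney, fewer cells of a type and less RNA per cell cannot be told apart.

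The Bmal1 call held in all 13 fits that left out 1 rat and missed with Naive rats as controls (adjusted p = 0.0618). The Npas2 call was lost without 1F102, 1F103, 1M1, 7F155, 7F156, 7M55 or 7M56 (adjusted p up to 0.0847), and Nfil3 gained one without 7M57 (adjusted p = 0.0240). The log2 ratio of the 3′ to the 5′ GAPDH control probe set, a sign of RNA quality, reached 1.24 on 1 Valproic acid array, against 0.485 at most on saline arrays of that day. With this ratio as a covariate, Bmal1 passed and Npas2 did not (adjusted p = 0.0705), nor did Npas2 without scaling (adjusted p = 0.224).

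After 1 day of Tobramycin, 7 genes (0.0613%) passed, 2 of them lower (0.0175%), and Bmal1 was the 1 called among the 6. It had 58.6 to 91.6 with a median of 78.8 in 6 Tobramycin rats, against 118.5 to 156.8 in 7 saline rats. The groups did not overlap, and the change was -0.66 (SE 0.11, adjusted p = 0.0431). Cry1, a repressor that joins the PER proteins, had 59.7 to 84.0 with a median of 66.0 in Tobramycin rats, against 102.6 to 282 with a median of 127 in saline rats. Here, too, all 6 treated rats lay below all saline rats, and the change of -0.90 (SE 0.16) had an adjusted p of 0.0570. Tobramycin rats lay wholly below saline rats for 13 genes (0.114%), 2 of them among the 6.

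These Tobramycin values lie close to the threshold, and Bmal1 passed in 6 of 15 other settings (adjusted p up to 0.604). The Bmal1 call was lost in 11 of 13 fits that left out 1 rat (without Tobramycin rats 4M29, 4M30, 4F128, 4F129 or 4F130, or saline rats 1M2, 1M3, 1F101, 1F102, 1F103 or 1F104, adjusted p up to 0.146) and when all arrays entered (adjusted p = 0.311). That fit, with 59 genes (0.517%) called, gave Cry1 an adjusted p of 0.00500, and on the groups compared Cry1 passed without 1M1 (0.0493) or 4M28 (0.0328).

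After 1 day of Doxorubicin, 5 genes (0.0438%) passed, 2 of them lower (0.0175%), and Nfil3 was the 1 called among the 6. Nfil3 had 14.2 to 48.955 with a median of 37.9 in 6 Doxorubicin rats, all below the saline range of 58.6 to 116. The change was -0.90 (SE 0.14, adjusted p = 0.0324). Clock had 239 to 331 in Doxorubicin rats, against 333 to 502 in saline rats, again with no overlap, and its change of -0.34 (SE 0.09) had an adjusted p of 0.302. Doxorubicin rats lay wholly below saline rats for 11 genes (0.0963%), 2 of them among the 6. The Nfil3 call held in 9 of 15 other settings (adjusted p up to 0.282) and was lost without 1F101, 1F102, 1F103, 1M1, 1M2, 1M3, 6F146, 6M46 or 6M48 (adjusted p up to 0.107).

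Bmal1 in Doxorubicin rats ran from 29.3 to 131.2 with a median of 49.8, and 1 rat, 6F148, reached the saline range. The change was -0.99 (SE 0.18, adjusted p = 0.0935), and without 6F148 it was -1.19 (adjusted p = 0.000448). Cry1 changed by -0.84 (SE 0.18, adjusted p = 0.186), and with the fit on all arrays, where 6 genes (0.0525%) passed, its adjusted p was 0.0265. Npas2 changed by -0.58 (adjusted p = 0.447) and ran from 38.7 to 215. Its means were 65.1 in males and 173.6 in females, against 157.6 and 186.2 in saline rats.

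After 1 day of Cadmium, 3 genes (0.0263%) passed with limma, and 0 of the 6 did. At an unadjusted p of 0.05, 4 of the 6 did, and 5.79% of all genes. Bmal1 had 26.5 to 98.7 with a median of 58.3, Cry1 had 48.2 to 82.2 with a median of 76.3 and Nfil3 had 15.6 to 55.7 with a median of 37.1 in 6 Cadmium rats. Each of the 3 lay wholly below its saline range, as did 6 of all genes (0.0525%). The changes were -1.04 (adjusted p = 0.132) for Bmal1, -0.89 (adjusted p = 0.283) for Cry1 and -0.82 (adjusted p = 0.425) for Nfil3. Bmal1 passed without 5M39 (-1.16, adjusted p = 0.0203) or 5F137 (-1.16, adjusted p = 0.0468), and Cry1 when all arrays entered (adjusted p = 0.0145), where 6 genes (0.0525%) passed.

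Cisplatin and Gentamycin at day 1 gave 0 calls among all genes (0%) and so among the 6. At an unadjusted p of 0.05, 4 of the 6 passed for Cisplatin (5.6% of all genes) and 0 for Gentamycin (4.61%). The fit on all arrays called 0 of the 6 for either compound, and 0% and 0.123% of all genes. In Cisplatin rats, Bmal1 had 66.2 to 122.3 with a median of 85.4 and changed by -0.45 (95% interval -0.71 to -0.20, adjusted p = 0.682). In Gentamycin rats Bmal1 had 86.5 to 171 with a median of 123.6, and its change of -0.03 had an interval of -0.28 to 0.21. Cry1, with 104.6 to 226 and a median of 127 in Gentamycin rats, changed by 0.03 (interval -0.29 to 0.35). For Gentamycin the intervals of the 6 genes all held 0. All 6 comparisons of day 1 share the same 7 saline rats.

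**Figure D2:**
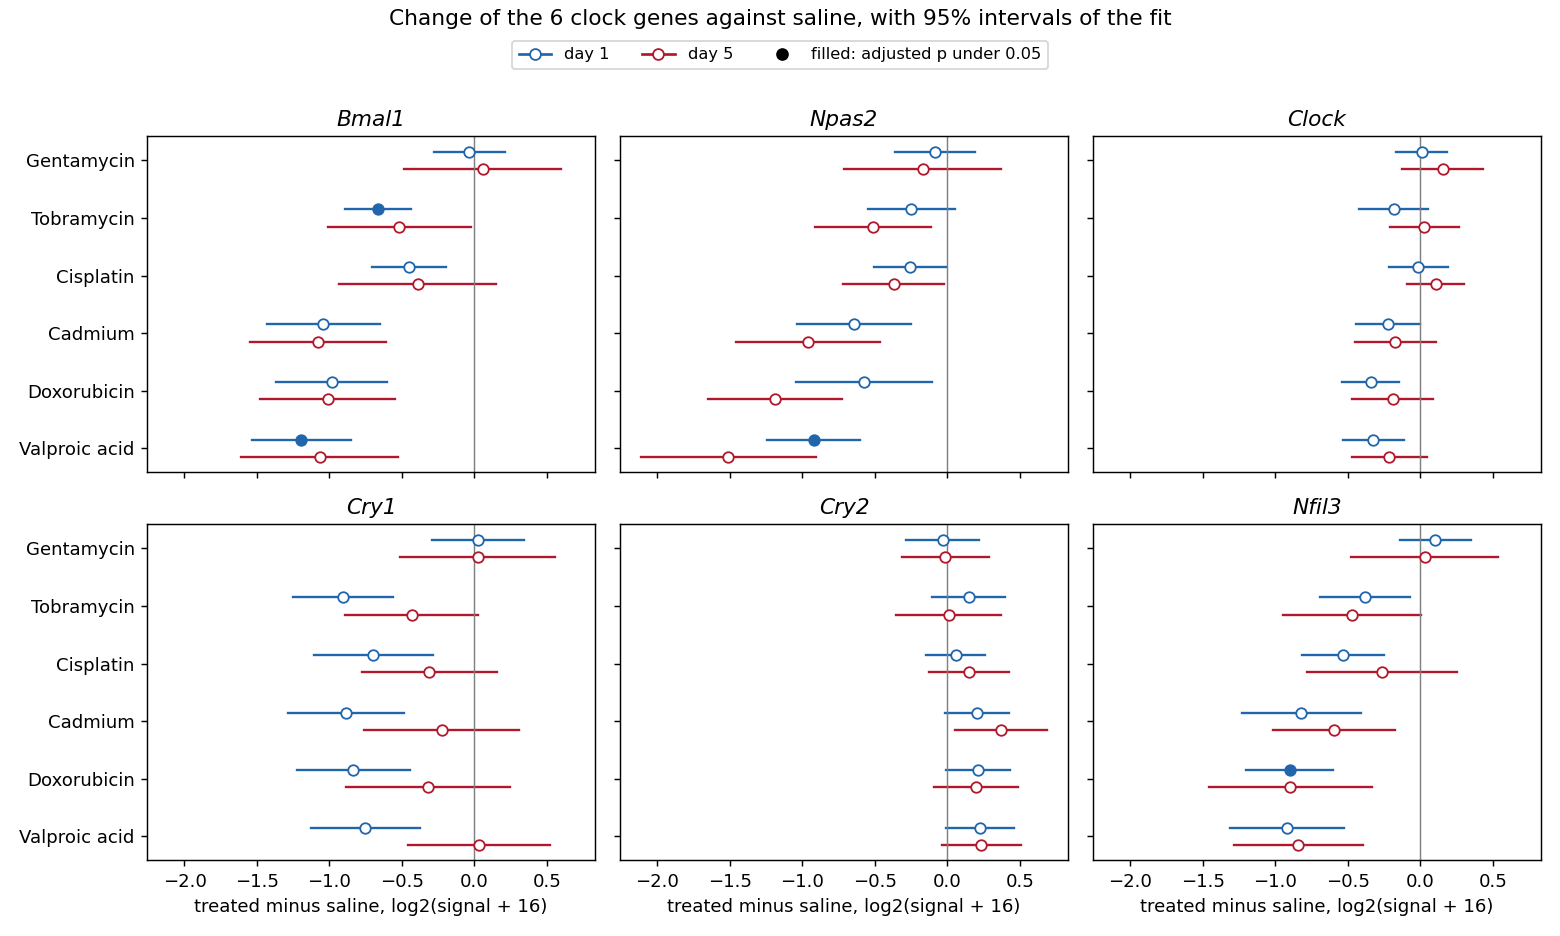
Change of each gene against saline of the same day, as a difference of log2(signal + 16) with the 95% interval of the fit, for 6 compounds at day 1 (blue) and day 5 (red), with filled points where the adjusted p is under 0.05. The 4 filled points are Bmal1 with Tobramycin and Valproic acid, Npas2 with Valproic acid and Nfil3 with Doxorubicin, all at day 1.

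At day 5, limma called 0 of the 6 genes for each of the 6 compounds, with 0.00876% of all genes called for Cisplatin, 0.114% for Doxorubicin and 0% for the other 4. At an unadjusted p of 0.05, 0 of the 6 passed for Gentamycin (6.25% of all genes), 2 for Tobramycin (4.97%) and 1 for Cisplatin (8.06%). With the other agents, 4 passed for Cadmium (3.5%), 3 for Doxorubicin (8.47%) and 3 for Valproic acid (6.63%). The fit on all arrays called 2 of the 6, Bmal1 and Npas2, for Doxorubicin (0.377% of all genes called) and for Valproic acid (0.149%), and 0 for Gentamycin (0.0175%), Tobramycin (0%), Cisplatin (0.412%) and Cadmium (0.0613%). These comparisons share the same 5 saline rats.

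Npas2 had the 2 largest changes of day 5, with Valproic acid and with Doxorubicin. In Valproic acid rats it had 15.1, 18.99 and 33.2 in the males and 54.6, 102.3 and 118 in the females, against 121.4, 130.1, 137.6, 172 and 219 in saline rats. All 6 treated rats lay below all saline rats, as for 24 of all genes (0.21%). The change was -1.51 (SE 0.28), with an adjusted p of 0.207 on the groups compared and 0.000190 in the fit on all arrays. In Doxorubicin rats Npas2 had 28.2, 55.4, 74.5, 77.5 and 94.8, again below every saline rat. That change was -1.19 (SE 0.21, adjusted p = 0.0755), with an adjusted p of 0.0440 without 1F105 and 0.00466 in the fit on all arrays.

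Bmal1 was also low in the same groups. It had 20.3, 22.1, 31.8, 49.01 and 49.4 in Doxorubicin rats, against 57.9, 78.8, 79.5, 100.3 and 123.7 in saline rats. The groups did not overlap, the change was -1.01 (SE 0.21, adjusted p = 0.145, and 0.0258 in the fit on all arrays), and 2 of the 6 genes were among the 62 of all genes (0.543%) wholly below saline. In Cadmium rats Bmal1 had 20.7 to 56.6 with a median of 27.4, below every saline rat, and changed by -1.08 (SE 0.22, adjusted p = 0.378), where 8 of all genes (0.0701%) lay wholly below saline. In Valproic acid rats it had 16.8, 19.7 and 23.2 in the males and 36.2, 48.1 and 80.5 in the females, and changed by -1.07 (SE 0.25, adjusted p = 0.352, and 0.0473 in the fit on all arrays).

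Nfil3, Cry1, Cry2 and Clock did not pass in any comparison of day 5 on the groups compared or in the fit on all arrays. Nfil3 changed by -0.90 (adjusted p = 0.310) with Doxorubicin and -0.84 (adjusted p = 0.365) with Valproic acid. Cry1 ran from -0.43 with Tobramycin to 0.04 with Valproic acid, and Cry2 from -0.01 with Gentamycin to 0.37 with Cadmium. Clock lay between -0.21 and 0.16, and the interval of each of its 6 changes held 0. Markers of red blood cells also moved in 1 of these groups: the summed signal of Hbb, Hba-a3 and Alas2 was 87.8 to 125 in Doxorubicin rats of day 5, against 4915 to 6617 in saline rats of that day. The summed signal of 6 macrophage and granulocyte genes was 1528 to 2448 in Doxorubicin rats of day 5, against 2588 to 3014 in saline rats. Lyz2 outweighed the others in this sum as well. The part of red blood cells and of these cells in the results of day 5 was not tested. The same sum of red cell genes was 2957 to 5521 in Doxorubicin rats of day 1, against 4832 to 7301 in saline rats of that day. The GAPDH ratio at day 5 reached 1.45 on 1 Cadmium array and 1.04 on 1 Valproic acid array, against 1.58 on 1 saline array.

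The effect at day 5 was set against that at day 1 within each compound. Limma called 0 of the 6 genes in each of the 6 tests, and the fit on all arrays called 0. At an unadjusted p of 0.05, 1.97%, 4.35%, 8.12%, 2.62%, 5.95% and 5.25% of all genes passed for Gentamycin, Tobramycin, Cisplatin, Cadmium, Doxorubicin and Valproic acid, and 1 of 6 clock genes did for Valproic acid and 0 for the other 5. That gene was Cry1 with Valproic acid, at 0.78 (interval 0.15 to 1.41, adjusted p = 0.900). The other values with the widest shift were 0.65 for Cry1 with Cadmium (interval -0.01 to 1.32) and -0.64 for Npas2 with Doxorubicin (interval -1.31 to 0.04). The share of all genes called was 0.0613% for Doxorubicin and 0% for the other 5 compounds, and in the fit on all arrays 0.0525% for Doxorubicin, 0.00876% for Cisplatin and 0% for the other 4.

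Gentamycin and Tobramycin, aminoglycoside antibiotics that share a deoxystreptamine core and differ in the sugars attached, were compared at each day, at doses that no source used here states. At day 1 Cry1 had 104.6 to 226 in Gentamycin rats, against 59.7 to 84.0 in Tobramycin rats. These groups did not overlap, as for 31 of all genes (0.271%), and the difference was 0.91 (interval 0.58 to 1.24, adjusted p = 0.238, and 0.0424 in the fit on all arrays, where 3 genes, 0.0263%, passed). Bmal1 differed by 0.61 (interval 0.31 to 0.92, adjusted p = 0.580) and Npas2 by 0.15 (interval -0.16 to 0.45). With limma on the groups compared, 0 of the 6 genes and 0% of all genes passed at either day. At an unadjusted p of 0.05, 3 of the 6 passed at day 1 (7.23% of all genes) and 3 at day 5 (5.81%). At day 5 Cry1 differed by 0.44 (interval 0.12 to 0.76, adjusted p = 0.835) and Clock by 0.12 (interval -0.11 to 0.36).

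The rest of the clock was counted beside these genes. Over the 15 groups, 8 of 10 measured outputs and repressors passed the F test, against 4.46% of all genes. They were led by Dbp (F 12.3), Nr1d2 (F 10.4) and Tef (F 10.1). None of 6 measured other clock regulators, such as the RORs and casein kinases, and 1 of 8 clock-controlled genes of kidney and metabolism, the deubiquitinase gene Usp2 (F 5.22), passed. None of 7 measured genes of the glucocorticoid response passed. At day 1 some outputs rose with 4 of the 6 compounds. With Valproic acid 4 of 10 rose, among them Dbp (1.68, adjusted p = 0.000488), Nr1d2 (0.87, adjusted p = 0.00239) and Per3 (1.56, adjusted p = 0.00295), and the list's median was 0.73 against 0.01 over all genes. With Doxorubicin 3 of 10 rose (Nr1d2, Nr1d1 and Dbp, median 0.56 against 0.02 over all genes). With Cadmium the same 3 of 10 rose (median 0.49 against 0.00 over all genes). With Tobramycin 1 of 10 rose (Dbp, median 0.34 against 0.00 over all genes). Of all genes, 0.0788% passed in either direction with Valproic acid, 0.0438% with Doxorubicin, 0.0263% with Cadmium and 0.0613% with Tobramycin.

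Dbp, whose product opposes NFIL3 at D-boxes, had 377 to 717 with a median of 490.3 in Valproic acid rats of day 1, against 115.4 to 238 with a median of 124.4 in saline rats. Its range lay wholly above saline, as the ranges of Bmal1, Npas2 and Nfil3 lay wholly below. For Gentamycin and Cisplatin at day 1 and for all compounds at day 5, 0 of 10 outputs passed with limma on the groups compared. In the fit on all arrays 3 rose with Cadmium (0.0613% of all genes called), 5 with Doxorubicin (0.377%) and 2 with Valproic acid (0.149%) at day 5. In that fit 0 fell in any of the 12 comparisons. These lists were drawn up with earlier results of these data known.

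The first digit of each rat's code follows the compound, with 1 for saline, 2 for Gentamycin, 3 for Cisplatin, 4 for Tobramycin, 5 for Cadmium, 6 for Doxorubicin, 7 for Valproic acid and 8 for Naive. No source used here says what the digit stands for. In the order of the digits 1 to 7, the mean log2 value of Bmal1 at day 1 was 7.18, 7.12, 6.72, 6.51, 6.15, 6.17 and 5.99. At day 5 it was 6.67, 6.72, 6.29, 6.17, 5.60, 5.61 and 5.63, and it was 6.98 in Naive rats.

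Npas2 followed the same course, at 7.54, 7.43, 7.27, 7.28, 6.89, 6.92 and 6.61 at day 1, at 7.40, 7.26, 7.04, 6.91, 6.48, 6.29 and 5.97 at day 5 and 7.48 in Naive rats. Dbp ran the opposite way at day 1, at 7.32, 7.77, 8.22, 8.49, 8.76, 8.96 and 9.02. At day 5 Dbp stood at 8.07, 8.22, 8.72, 8.70, 9.43, 9.55 and 9.24. Over the digits 1 to 7, levels of Bmal1 and Npas2 thus stood lower and that of Dbp higher at the later digits. Naive rats, with the digit 8, were outside this order, with Dbp at 7.90. Cry1 stood at 7.35 and 7.33 for the digits 1 and 2 at day 1 and between 6.41 and 6.62 for the digits 3 to 7. At day 5 Cry1 was 6.93, 6.96, 6.63, 6.51, 6.70, 6.59 and 6.97, so it was highest at the digit 7. Nfil3 went from 6.57 at the digit 1 to 5.63 at the digit 7 at day 1, and from 6.35 to 5.55 at day 5. For Clock these pairs were 8.63 to 8.33 and 8.49 to 8.25, and for Cry2 7.40 to 7.61 and 7.51 to 7.75. Compound and digit cannot be told apart in this design.

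The control groups were compared with each other, since each treatment is read against them. Limma called 0 of the 6 genes and 0% of all genes for saline against Naive rats at either day and for saline of day 5 against saline of day 1, and the fit on all arrays called 0 as well. At an unadjusted p of 0.05, 1 of the 6 passed for saline of day 1 against Naive rats (8.13% of all genes), 0 for saline of day 5 against Naive rats (5.91%) and 1 for day 5 against day 1 (4.51%). Bmal1 in saline rats had 57.9, 78.8, 79.5, 100.3 and 123.7 at day 5, against 118.5 to 156.8 with a median of 123.1 at day 1. Of the 5 rats of day 5, 1 reached the day 1 range, and the difference was -0.54 (interval -0.82 to -0.25, adjusted p = 0.798). Cry1 was 0.45 higher in saline rats of day 1 than in Naive rats (interval 0.04 to 0.86, adjusted p = 0.583).

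Sex was compared in the 18 control rats, where 2700 genes (23.6%) passed. Clock, which encodes the partner of BMAL1, had 333 to 502 with a median of 410 in 9 males, against 259 to 406 with a median of 353 in 9 females. The ranges overlapped, and males were higher by 0.28 (SE 0.09, adjusted p = 0.0255). Nfil3 had 36.1 to 94.3 with a median of 58.6 in males, against 56.3 to 125 with a median of 93.9 in females, and males were lower by a log2 change of -0.46 (SE 0.15, adjusted p = 0.0306). A share of 2 of 6 is to be read against the 23.6% of all genes. The Clock call was lost without 1M1, 1F105, 1F106 or 8M82 (adjusted p up to 0.0622) and the Nfil3 call without 1M1, 1M2, 1M6, 1F101, 1F103, 1F106, 8F181 or 8M82 (adjusted p up to 0.0794), while Cry1 gained one without 8M83 (adjusted p = 0.0487).

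Over all 89 arrays, where 7337 genes (64.2%) passed for sex, 4 of the 6 genes did, a share close to that of all genes. Npas2 was lower in males by a log2 change of -0.48 (adjusted p = 4.83e-07), Nfil3 by -0.26 (adjusted p = 0.00377) and Bmal1 by -0.24 (adjusted p = 0.0122), while Clock was higher by 0.20 (adjusted p = 1.69e-05). In the 18 control rats the difference for Bmal1 was 0.01 (adjusted p = 0.946). In Valproic acid rats of day 5 the Npas2 means were 22.4 in males and 91.7 in females, and in saline rats of that day they were 156.8 in males and 154.7 in females. In Doxorubicin rats of day 5 they were 41.8 in males and 82.2 in females, and in Cadmium rats of day 5 they were 53.8 in males and 105.9 in females. A difference between the sexes in the effect of a compound was not tested.

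How the genes moved together from rat to rat was read from log2 values minus the mean of the rat's own group and sex. Over 89 rats and 33 pairs, these values were shuffled 100000 times within groups. The shuffles did not keep the sexes apart although the means of each sex had been removed, so the permutation p tends to be too small. A two-sided permutation p of 1e-05 is the smallest these shuffles can give, and 3.3e-05 is then the adjusted p of r. Bmal1 and its partner Clock moved together, with r 0.61 and rho 0.56 (permutation p = 1e-05 for each), and r was 0.67 over 43 rats of day 1, 0.59 over 40 rats of day 5 and 0.29 over 6 Naive rats. Without the 2 rats farthest from the Bmal1 median, r was 0.55. Bmal1 and Npas2 had r 0.48 and rho 0.44 (permutation p = 0.00012 and 0.0001, adjusted 0.000264 and 0.000254), with r 0.53 at day 1, 0.48 at day 5 and 0.39 without the 2 farthest rats. Bmal1 and Nfil3 had r 0.47 and rho 0.44 (permutation p = 0.00015 and 0.00027, adjusted 0.000309 and 0.000557), with r 0.41 at day 1, 0.48 at day 5 and 0.44 without the 2 farthest rats. With the GAPDH ratio removed by regression, r was 0.49 for Bmal1 and Clock, 0.52 for Bmal1 and Npas2 and 0.73 for Bmal1 and Nfil3.

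Cry2 stood against Bmal1, with r -0.55 and rho -0.52 (permutation p = 1e-05 for each). Within day 1 this r was -0.30, within day 5 -0.72, and without the 2 farthest rats -0.50. Cry1 went with Nfil3 (r 0.43, rho 0.40, permutation p = 0.00012 and 0.00038, adjusted 0.000264 and 0.000738), with r 0.33 at day 1, 0.43 at day 5 and 0.39 without the 2 farthest rats. The pair of cryptochromes, Cry1 and Cry2, had r -0.05 and rho -0.11 (permutation p = 0.657 and 0.341, adjusted 0.699 and 0.388), with r -0.04 at day 1, -0.02 at day 5 and -0.04 without the 2 farthest rats.

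Against the output Dbp, 5 of the 6 genes had a negative r and Cry2 a positive one. Bmal1 had r -0.71 and rho -0.71 (permutation p = 1e-05 for each), with -0.82 at day 1, -0.62 at day 5 and -0.67 without the 2 farthest rats. Cry1 had r -0.65 and rho -0.62 with Dbp (permutation p = 1e-05 for each), with -0.54 at day 1, -0.70 at day 5 and -0.64 without the 2 farthest. Cry2 had r 0.52 and rho 0.54 with Dbp (permutation p = 1e-05 for each), with 0.40 at day 1, 0.60 at day 5 and 0.56 without the 2 farthest.

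**Figure D3:**
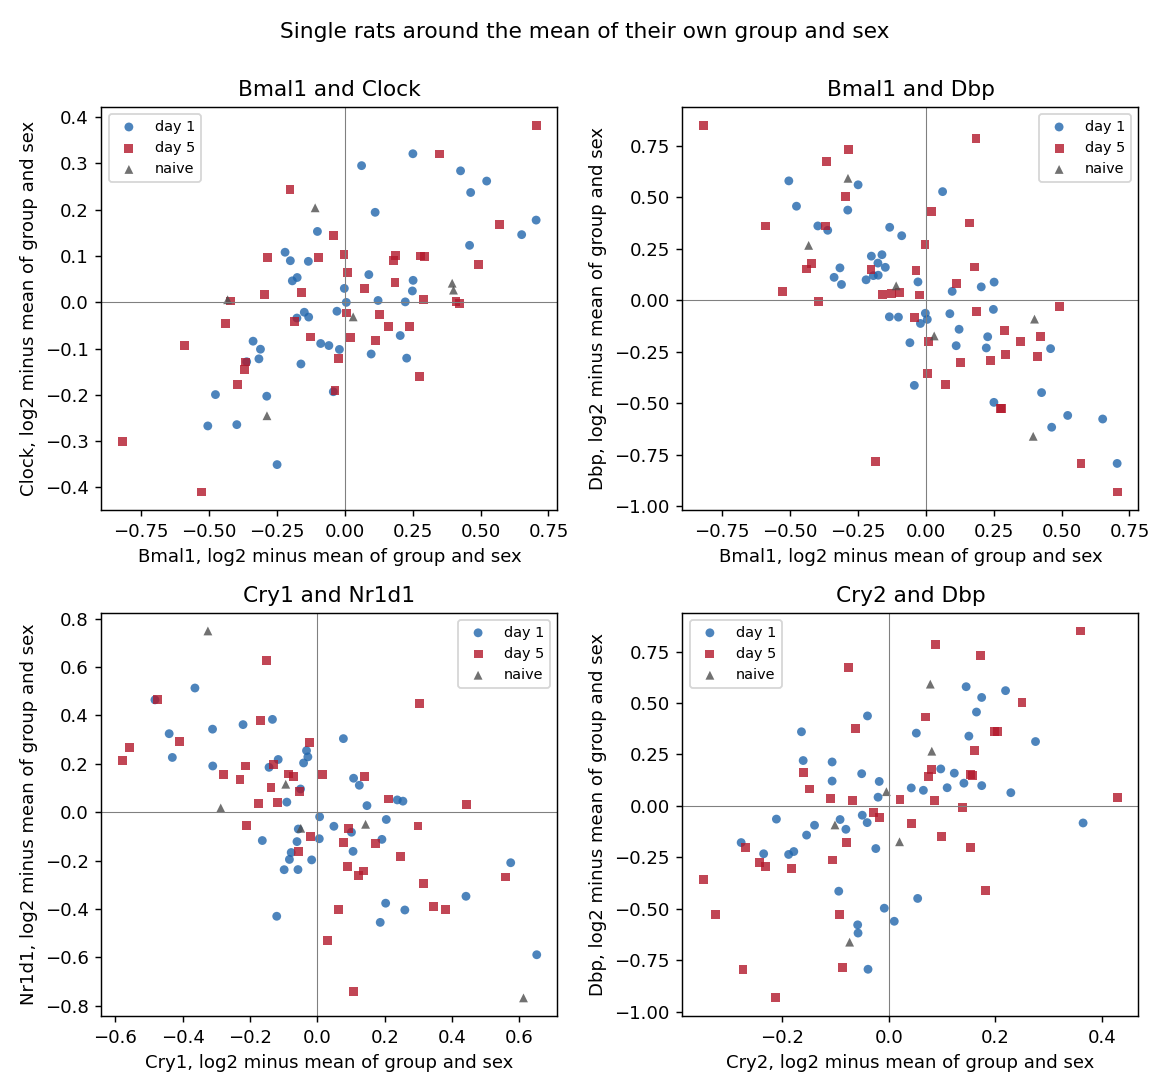
Single rats as log2 values minus the mean of their own group and sex, for 4 pairs of genes, with rats of day 1 as blue circles, of day 5 as red squares and Naive rats as grey triangles. Bmal1 rises with Clock (r 0.61) and falls as Dbp rises (r -0.71), Cry1 falls as Nr1d1 rises (r -0.63) and Cry2 rises with Dbp (r 0.52).

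The Rev-erb gene Nr1d1 went against Cry1 with r -0.63 and rho -0.62 (permutation p = 1e-05 for each, r -0.65 at day 1, -0.54 at day 5 and -0.57 without the 2 farthest rats). With Npas2 its r was -0.09 and its rho -0.09 (permutation p = 0.418 and 0.436, adjusted 0.460 and 0.480), with r -0.12 at day 1, -0.08 at day 5 and -0.03 without the 2 farthest. Per2 went against Nfil3 (r -0.52, rho -0.50, permutation p = 1e-05 and 2e-05, r -0.35 at day 1, -0.64 at day 5 and -0.52 without the 2 farthest). Its r with Clock was -0.04 and its rho -0.02 (permutation p = 0.746 and 0.869, adjusted to the same values), with r -0.14 at day 1, 0.03 at day 5 and -0.02 without the 2 farthest. With the GAPDH ratio removed by regression, r was -0.76 for Cry1 and Nr1d1 and -0.09 for Npas2 and Nr1d1. It was then -0.49 for Nfil3 and Per2 and -0.18 for Clock and Per2.

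**Figure D4:**
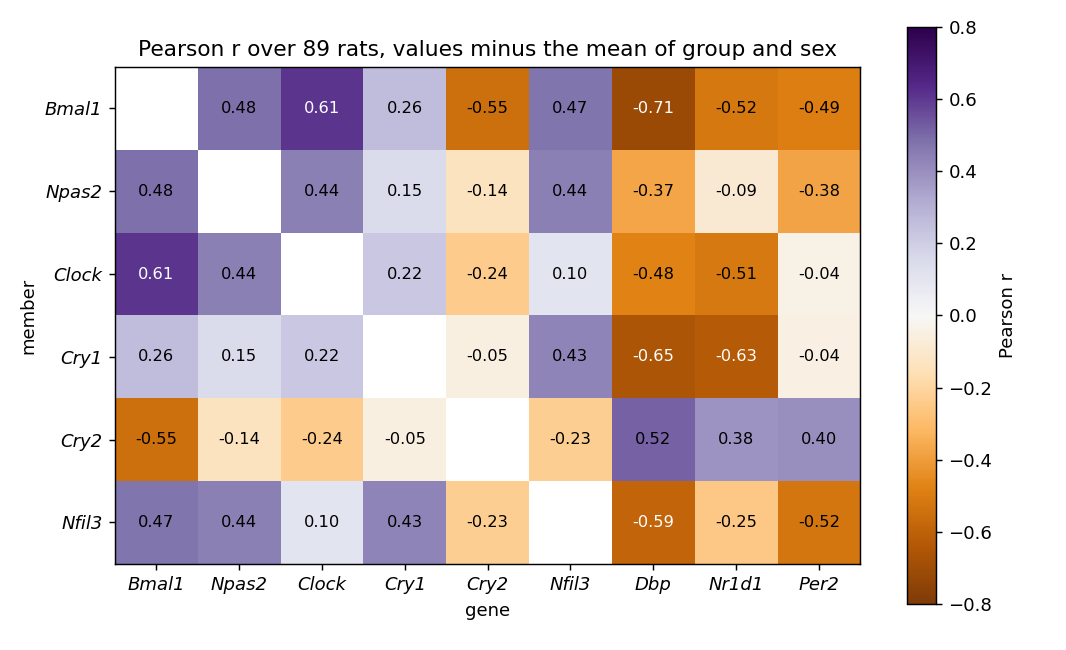
Pearson r over 89 rats between each of the 6 genes and the 6 genes, Dbp, Nr1d1 and Per2, from log2 values minus the mean of group and sex, with purple for positive and orange for negative r. The Dbp column is negative for Bmal1, Npas2, Clock, Cry1 and Nfil3 (-0.37 to -0.71) and positive for Cry2 (0.52).

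Over all tested genes, likeness was measured as the same r within group and sex over 89 arrays, as a description. The genes most like Bmal1 were Tmem106b (0.62), Exoc5 (0.61) and Gpam (0.61), and the least like it were Dbp (-0.71), Per3 (-0.67) and Tcea3 (-0.62). For Npas2 the highest were Bmal1 (0.48), Rpia (0.45) and Clock (0.44), and the lowest Fam229b (-0.46), Tef (-0.43) and Tmem59 (-0.42). For Clock the highest were Snx9 (0.76), Lrp11 (0.73) and Dram2 (0.73), and the lowest Wbp1 (-0.75), Rhcg (-0.75) and Wfdc2 (-0.74). Clock thus had closer matches outside the clock than any of the other 5 genes.

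For Cry1 the highest were Fam114a2 (0.54), R3hdm1 (0.49) and Rab8b (0.48), and the lowest Dbp (-0.65), Nr1d1 (-0.63) and Nr1d2 (-0.57). For Cry2 the highest were Pea15 (0.54), Dbp (0.52) and Slc43a2 (0.51), and the lowest Bmal1 (-0.55), Arfgef1 (-0.50) and LOC100912188 (-0.50). For Nfil3 the highest were Rab17 (0.59), Map3k11 (0.55) and Pnrc1 (0.55), and the lowest Nr1d2 (-0.66), Dbp (-0.59) and Per2 (-0.52). Clock outputs or repressors were thus among the 3 lowest for Bmal1, Npas2, Cry1 and Nfil3, and Dbp was among the 3 highest for Cry2.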

How the data were processed

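The authors deposited 1 MAS5 signal per probe set and array as a linear intensity, with MAS5 named per the submitters' processing notes and its version and scaling not given in the sources used here. Of 31099 probe sets, 57 controls, 436 with several gene symbols and 9780 with none were left out. Arrays were scaled so that their 2% trimmed means all equalled 181, and values were taken as log2(signal + 16). Each gene was represented by its probe set of highest mean. Testing was limited to the 11420 genes with a signal over 33.1, the 40th percentile of all values, on 5 or more arrays. Signals carry no counts, so precision rests on the number of arrays. The p-values of limma set a difference against the spread between rats, moderated over all genes tested.

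Groups came from the sample titles. Differences were tested with limma 3.58.1 (lmFit, eBayes with trend and robust, sex as a term) in R 4.3.3, on the arrays of the groups compared, with Benjamini-Hochberg adjustment over all genes tested and 0.05 as the limit. The fit on all 89 arrays pools the spread of all groups. Other alternatives were the pseudocount, normalization, filter, probe set rule, sex term, controls, doubtful arrays, array weights, the GAPDH ratio and leaving out each rat. The fit was tested on simulated data. Matplotlib 3.10.9 under Python 3.11.15 drew the figures.

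The 6 genes and the gene lists were chosen with earlier results of these data known. The genes named are the 6 throughout, up to 3 genes per comparison from the lists that pass by smallest adjusted p, and for each of the 6 the 3 genes of highest and of lowest r. Sequences are RefSeq's, in GRCr8.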

Additional observations from a re-analysis of the deposited data

Results flagged for a closer look

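In 7 of 90 sets of 1 gene in 1 group, the highest or lowest rat stood apart by Dixon's gap test, which divides the gap to the nearest rat by the range of the group, here on log2(signal + 16), while the levels given are signals. Chance gives about 1 in 20 such sets. Bmal1 in saline rats of day 1 was highest in 1F102, at 156.8 with the next rat at 132.1 (gap over range 0.616). Npas2 in Gentamycin rats of day 5 was lowest in 2M15, at 51.7 with the next at 135 (0.715). Clock in the same group was highest in 2M14, at 530.1 with the next at 379.8 (0.653), and Clock in Tobramycin rats of day 5 was highest in 4M33, at 433 with the next at 349 (0.683). Cry1 in Cadmium rats of day 1 was lowest in 5F138, at 48.2 with the next at 69.7 (0.680), and Cry1 in Valproic acid rats of day 1 was highest in 7M57, at 105.7 with the next at 78.3 (0.696). Cry2 in saline rats of day 5 was lowest in 1M5, at 121.3 with the next at 173 (0.725).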

How the results depend on the processing

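For single genes, 2085 of 2172 values under other settings kept their side of the threshold and their sign if called, 40 lost a call, 47 gained one and 0 called values turned sign. With 1 rat left out, 3143 of 3216 did so, 62 lost a call and 11 gained one. The sign differed for 130 values under other settings and 161 with 1 rat left out, none of them called in the main fit. Most of the values were not called in the main fit and could not lose a call, so these totals do not describe the called ones. Of 66 pair correlations, 62 kept their side and 4 gained a call. The numbers of the 6 genes called that moved by over 1.5 times are given first. With Tobramycin at day 1 (1 called) it was 0 with a pseudocount of 64, quantile normalization, no sex term, the GAPDH ratio as covariate, Naive or pooled controls, without 1F104 or without the 5 doubtful arrays, and 2 without scaling or with array weights. With Cadmium at day 1 (0 called) it was 1 on all arrays or without scaling. With Doxorubicin at day 1 (1 called) it was 3 without scaling and 0 without the sex term, without the 5 arrays, with the GAPDH ratio, array weights or Naive controls. With Valproic acid at day 1 (2 called) it was 4 on all arrays and 1 without scaling, with the GAPDH ratio or Naive controls. At day 5 (0 called with each compound), pooled controls gave 2 with Tobramycin and 3 with Cadmium, Doxorubicin and Valproic acid, Naive controls gave 2 with each of these 3, all arrays gave 2 with Doxorubicin and Valproic acid, and no scaling gave 3 with Doxorubicin and 2 with Valproic acid. Gentamycin against Tobramycin at day 1 (0 called) gave 1 on all arrays and 2 without scaling. Males against females among controls (2 called) gave 4 on all arrays, 1 with quantile normalization, the mean of probe sets, array weights or without the 5 arrays, and 0 without scaling or with the GAPDH ratio. The 7 groups of day 5 (2 called) gave 0 without the sex term. Smaller moves were 3 for Valproic acid at day 1 with pooled controls, 3 for the 7 groups of day 5 on all arrays, without scaling, with the GAPDH ratio or array weights, and for the 7 groups of day 1 (4 called) 3 on all arrays, without the sex term, without the 5 arrays or with the GAPDH ratio and 5 with array weights. The 15 groups (6 called) gave 4 without scaling, with the mean of probe sets or without the sex term, and 5 with quantile normalization or without the 5 arrays. With 1 rat left out, the counts ran from 0 to 2 for Tobramycin, 0 to 1 for Cadmium, 0 to 2 for Doxorubicin and 1 to 3 for Valproic acid at day 1, from 0 to 1 for Doxorubicin at day 5, and from 0 to 3 for males against females. The causes were not tested. Without scaling, the median change over all genes lay between -0.31 and 0.15 in the 12 treatment comparisons, and relative to it 0 of 72 values of the 6 genes changed sign. No paired analysis was possible because no label ties a rat of one group to a rat of another.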
